A study of Mus musculus with 10 samples.

Results

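The 36 genes described here mark proliferating cells in 10 mouse cutaneous tumors and were chosen by gene symbol, out of 35275 genes listed in each table. All 36 were found in all 10 tumors. They comprised 14 genes of DNA replication, 18 genes of mitosis and 4 regulators (*Foxm1*, *Mybl2*, *E2f1* and *Ccnd1*), and all 36 passed the filter on low counts. The study asked whether lactate dehydrogenase A, the enzyme encoded by *Ldha* that makes lactate from pyruvate, matters in squamous cell carcinoma of the skin, and 5 of the tumors were labelled LDHA-/- (*Ldha*-null) and 5 wild type. By the series description, the tumors are of 10 separate mice, and they are called null 1 to null 5 and WT 1 to WT 5 below. The mice carried conditional alleles on a mixed C57BL6/FVB background. Cre in hair follicle stem cells was driven by a keratin 15 or an *Lgr5* transgene in the study, which used more than one tumor model, among them treatment with the chemicals DMBA and TPA. The mice were treated as young adults and tumors were taken at times that differed between models, and which model these 10 tumors came from is not stated. The labels name squamous carcinoma cells as the source, whereas the protocol describes whole fresh tumors, so stroma and leukocytes may be included.

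Cells copy their DNA in S phase and divide in M phase, and the transcripts for these steps are made in waves. Before S phase the origin factors Cdc6 and Cdt1 load the MCM helicase, a ring of different subunits, on DNA. E2F factors, held back by the pocket protein Rb until cyclin D and its kinases act, drive the genes of replication. The later mitotic genes are held back by the DREAM complex and driven by the MuvB complex with B-Myb (*Mybl2*) and FoxM1. The promoter elements of these mitotic genes are called CHR and CCAAT. In skin, cycling cells normally lie in the basal layer and the hair follicle.

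The promoters below show these elements for the 2 replication genes and the 2 mitotic genes with the highest FPKM that had such an element outside the UTRs of the GENCODE annotation, so that *Pcna* was passed over, with *Mcm5* added after its values were seen. Each stretch is 200 bases (GRCm38.p6, written 5′ to 3′ on the strand of the gene) that end at the RefSeq start, or 13 bases before it in *Rrm2* and 26 in *Cdk1*. Capitals mark CCAAT, the CHR letters TTTGAA or TTCGAA, and the E2F letters TTTCCCGC, TTTCGCGC, TTTGCCGC or TTTGGCGC, each on either strand.
*Mcm7*, chr5:138171267-138171466, minus strand: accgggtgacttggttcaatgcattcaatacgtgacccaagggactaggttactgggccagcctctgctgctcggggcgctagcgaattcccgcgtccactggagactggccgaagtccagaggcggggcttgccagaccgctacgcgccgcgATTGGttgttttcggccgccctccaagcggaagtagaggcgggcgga
*Rrm2*, chr12:24708041-24708240, plus strand: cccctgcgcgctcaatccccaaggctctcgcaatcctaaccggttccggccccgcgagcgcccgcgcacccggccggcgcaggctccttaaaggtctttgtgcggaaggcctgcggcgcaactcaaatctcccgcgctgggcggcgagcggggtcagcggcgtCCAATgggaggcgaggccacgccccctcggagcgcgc
*Mcm5*, chr8:75109309-75109508, plus strand: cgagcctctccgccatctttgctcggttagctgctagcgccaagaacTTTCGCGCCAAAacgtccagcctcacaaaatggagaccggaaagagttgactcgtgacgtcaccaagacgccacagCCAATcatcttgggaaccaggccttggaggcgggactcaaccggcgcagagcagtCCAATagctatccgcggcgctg
*Top2a*, chr11:99024190-99024389, minus strand: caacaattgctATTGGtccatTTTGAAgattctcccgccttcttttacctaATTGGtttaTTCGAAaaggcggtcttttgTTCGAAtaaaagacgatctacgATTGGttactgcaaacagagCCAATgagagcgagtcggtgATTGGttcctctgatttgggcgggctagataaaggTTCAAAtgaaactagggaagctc
*Cdk1*, chr10:69352939-69353138, minus strand: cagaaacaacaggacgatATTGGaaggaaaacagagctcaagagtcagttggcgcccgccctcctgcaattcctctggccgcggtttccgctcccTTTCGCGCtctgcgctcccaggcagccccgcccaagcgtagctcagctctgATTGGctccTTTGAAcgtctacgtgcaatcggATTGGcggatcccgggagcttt
A RefSeq window of 300 bases (250 before the start and 50 after it) was matched for 28 of the 36 genes, giving 29 windows because *Mcm7* has 2, of which the one nearer the coding sequence is shown. Of the *Mcm7* windows, 1 held 1 CHR, 2 E2F and 3 CCAAT matches, and the other held 1 CCAAT match alone. The *Mcm7* stretch shown holds 1 CCAAT and neither CHR nor E2F letters. CHR letters were present in 11 of 14 mitotic windows and 2 of 13 replication windows, against 19.2% of all 32851 promoter windows. E2F letters were present in 6 of 13 replication windows and in 1 of 14 mitotic windows, that of *Cdk1*, against 2.26% of all windows. CCAAT was present in 9 of 13 replication windows and 13 of 14 mitotic windows, against 37.4% of all windows. The CHR and the CCAAT letters occurred together in 11 mitotic windows, 2 replication windows and 7.52% of all windows. The 2 windows of regulators, *E2f1* and *Mybl2*, held none of these letters. In *Mcm5* a pair of E2F matches on opposite strands overlap in a single run of capitals. Windows were not matched for *Mcm4*, *Ccnd1*, *Kif20a*, *Tpx2*, *Ccne2*, *Foxm1*, *Ccna2* and *Aurkb*.

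Total counts were 15052860 to 17398949 per *Ldha*-null tumor and 12969508 to 17694201 per wild-type tumor, and the members took from 0.0392% of all counts in null 1 to 0.286% in WT 5. *Ldha* RNA was at 246 to 1883 FPKM where the label was *Ldha*-null and at 340.1 to 2824 FPKM where it was wild type, so its level did not separate the labels. FPKM are fragments scaled by gene length and by the total of counted fragments. Tumor null 1 stood apart in tissue content. A list of 12 skeletal muscle markers took 13.9% of its counts and at most 0.0236% in any other tumor, where up to 1 of the 12 was at 0, and its 8 leukocyte markers summed to 82.7 FPKM against 387 to 4915 FPKM elsewhere. The 8 basal keratinocyte markers, none of them at 0 in any tumor, summed to 31541 FPKM in null 3 and 35530 FPKM in WT 5, and to between 272 and 5054 FPKM in the other 8. The 8 mesenchymal markers summed to 374, 2979 and 4808 FPKM in these 3 tumors and to between 7461 and 13660 FPKM in the other 7. The first principal component of all tested genes held 43.4% of the variance and set the same 3 tumors apart. The part that these differences in tissue play in the levels of the cell cycle genes was not tested. In whole tumors, fewer cycling cells and less of these transcripts per cell cannot be told apart.

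The cell cycle genes differed widely between tumors of the same label. Their median FPKM was lowest in null 1, at 3.92, and next lowest in WT 4 and null 4, at 10.7 and 11. It was highest in null 3 and WT 5, at 25.2 and 27.4, which are also the 2 tumors richest in basal keratinocyte markers. In FPKM, 35 of the 36 genes were lowest in null 1, the exception being *Ccne2*, and after scaling by TMM (edgeR's factors for library composition, 0.589 for that tumor and 0.881 to 1.2 for the others) 24 of 36 were. Highest FPKM fell in WT 5 for 17 genes and in null 3 for 10, an order that turned after TMM scaling, with null 3 highest for 19 and WT 5 for 13. Without null 1, the lowest FPKM fell in WT 4 for 18 genes and in null 4 for 13, and this order turned too, to 14 and 17 after TMM scaling. The same pairs of tumors thus lay at either end on both scales, while the order within each pair depended on the scaling.

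**Figure D1:**
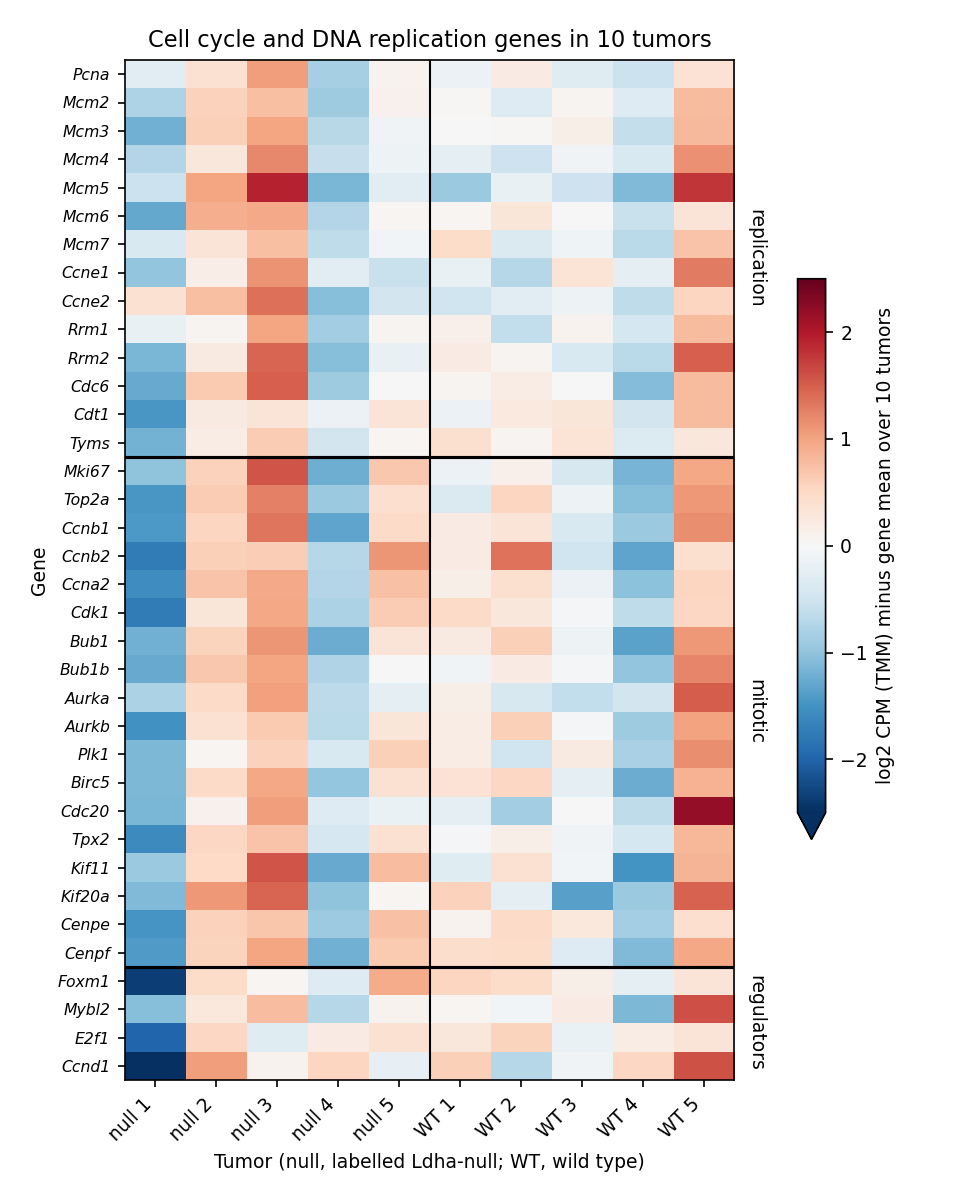
Each row is a gene and each column a tumor, and colour gives log2 CPM scaled by TMM minus the mean of the gene over the 10 tumors, with 14 replication, 18 mitotic and 4 regulator genes from top to bottom. Tumors null 1, null 4 and WT 4 are mostly blue and null 3 and WT 5 mostly red; 1 value, that of *Ccnd1* in null 1 at -3.35, lies below the colour scale.

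Mitotic transcripts spread more between tumors than replication transcripts. The SD of log2 CPM over the 10 tumors had a median of 0.69 for the replication genes, 0.89 for the mitotic genes and 0.87 for the regulators, with 0.64 for all 15176 tested genes. Without null 1 these medians were 0.60, 0.81, 0.54 and 0.51, and over the 7 tumors without null 1, null 3 and WT 5 they were 0.44, 0.69, 0.48 and 0.41. The order of replication and mitotic genes was thus the same in the 3 sets of tumors, and no test was made of it.

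Among the replication genes, *Pcna*, the sliding clamp that holds DNA polymerase on its template (mm10 chromosome 2, 132249162 to 132253314), had the highest mean FPKM. It stood at 57.6, 172, 220.5, 75.2 and 154 FPKM in null 1 to 5 and at 123, 154, 107, 86.6 and 148 FPKM in WT 1 to 5. The *Ldha*-null values lay on both sides of the wild-type range, and the means were 136 ± 30.5 and 124 ± 12.6 FPKM (SEM, n = 5 each). At most 4 reads fell on either of its 2 listed pseudogenes in any tumor.

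*Cdt1* and *Cdc6* load the helicase at origins. *Cdt1* was at 2.05, 12.5, 10.7, 9.77 and 14.7 FPKM in null 1 to 5 and at 9.83, 12.9, 13.1, 7.31 and 16.0 FPKM in the WT group, so that 4 *Ldha*-null tumors lay within the wild-type range and null 1 below it. *Cdc6*, the least abundant of the 14, ranged from 0.544 FPKM in null 1, on 30 counts (95% exact Poisson interval 20.2 to 42.8), to 5.79 FPKM in null 3. That interval covers counting error alone, and the difference between these 2 tumors is far wider.

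*Mcm5* varied more between tumors than the other subunits of the MCM ring. It was at 4.30, 23.5, 36.1, 5.42 and 10.8 FPKM in null 1 to 5 and at 6.34, 10.6, 8.25, 5.17 and 35.4 FPKM in WT 1 to 5. Tumors null 3 and WT 5 were alike and high, followed by null 2, and the labels overlapped over nearly the whole range. Measured against the mean log2 CPM of the other 5 subunits (each centred on its own mean over tumors), *Mcm5* ranged from -1.0 in WT 1 to 1.02 in WT 5 and was 0.99 in null 3. This range of 2.02 on the log2 scale compares with 0.68 for *Mcm4*, 0.74 for *Mcm3*, 0.76 for *Mcm2*, 1.07 for *Mcm7* and 1.31 for *Mcm6*, measured in the same way. As a ratio of FPKM, *Mcm5* over *Mcm6* went from 0.228 in WT 1 to 1.26 in WT 5. No test was made of these ranges.

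*Mcm7* (mm10 chromosome 5, 138164583 to 138172422) had the highest FPKM of the subunits, at 27.8, 84.9, 93.1, 44.4 and 71.3 in null 1 to 5 and 96.2, 54.0, 62.7, 40.4 and 97.6 in WT 1 to 5. In FPKM its *Ldha*-null values were spread over the wild-type range apart from that of null 1. Over the 10 tumors *Mcm2* ranged from 5.71 to 27.8 FPKM, *Mcm3* from 6.88 to 47.8 FPKM, *Mcm4* from 3.44 to 20.8 FPKM and *Mcm6* from 5.63 to 49.0 FPKM, each lowest in null 1. After TMM scaling *Mcm2* was lowest in null 4, and *Mcm7* in null 1 lay within the wild-type range. The gene lengths behind FPKM matched the listed length within 1% for 12 of the 36 genes, so that a comparison of levels between genes rests on lengths chosen by the authors, which were the same in every tumor.

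**Figure D2:**
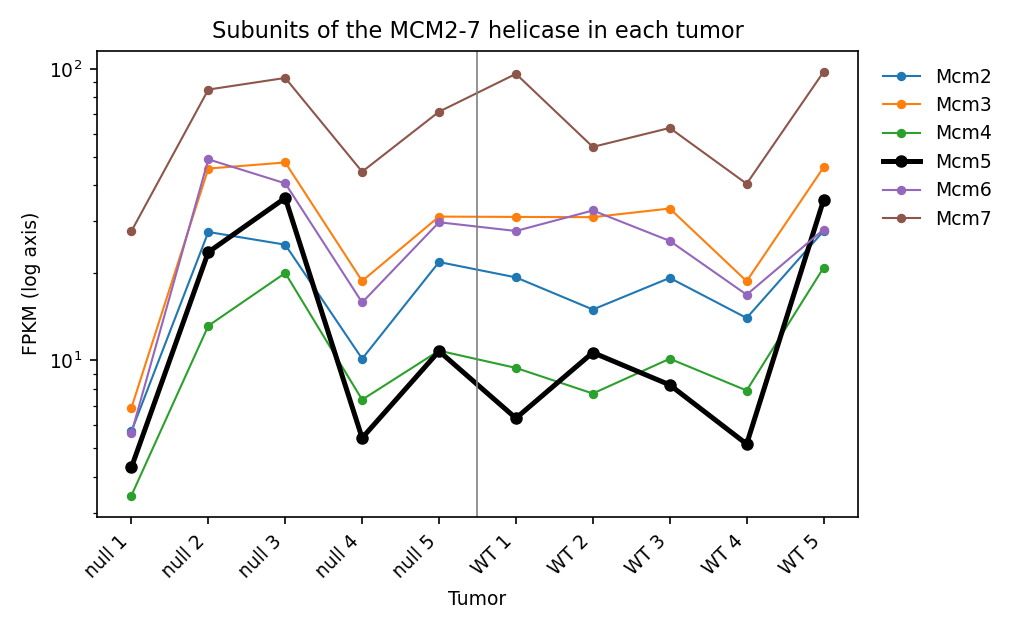
FPKM (log axis) of the 6 MCM subunits in each tumor, with *Ldha*-null tumors left of the grey line and wild-type tumors right of it. *Mcm5*, in black, reaches 36.1 FPKM in null 3 and 35.4 FPKM in WT 5 and lies between 4.30 and 23.5 FPKM in the other 8.

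In FPKM the genes that supply nucleotides for replication were all lowest in null 1 and differed in span. *Tyms*, thymidylate synthase, was at 4.70, 22.9, 25.4, 14.7 and 23.0 FPKM in null 1 to 5 and at 27.4, 21.5, 25.5, 15 and 21.3 FPKM in WT 1 to 5, and apart from null 1 no tumor was below 14.7 FPKM. *Rrm1*, the large subunit of ribonucleotide reductase, ranged from 9.03 to 31.0 FPKM, and *Rrm2*, its S phase subunit, from 6.88 to 70.4 FPKM. After TMM scaling *Rrm1* was lowest in null 4, at 5.27 log2 CPM against 5.97 in null 1. The ratio *Rrm2* over *Rrm1* ranged from 0.762 in null 1 to 2.41 in WT 2 and WT 5, with the other tumors between.

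The cyclins E, which activate Cdk2 at the entry to S phase, were not proportional to each other. *Ccne2* was at 3.14, 7.68, 9.63, 2.15 and 3.59 FPKM in null 1 to 5 and at 3.29, 3.85, 4.11, 2.72 and 5.73 FPKM in WT 1 to 5. The highest 2 and the lowest value were all *Ldha*-null. *Ccne1* ranged from 3.72 FPKM in null 1 to 30.2 FPKM in WT 5, and *Ccne1* over *Ccne2* from 1.19 in null 1 to 5.40 in null 4.

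Among the mitotic genes, *Mki67*, which encodes the Ki67 antigen used to stain cycling cells (mm10 chromosome 7, 135689788 to 135716379), stood at 2.56, 14.4, 23.3, 4.19 and 16.9 FPKM in null 1 to 5. In WT 1 to 5 it was at 8.99, 10.7, 7.26, 4.09 and 16.4 FPKM. In FPKM the *Ldha*-null group held both the 2 highest values and the lowest. In log2 CPM after TMM scaling WT 5, at 7.45, was above null 5, at 7.15, and null 4 was lowest, at 5.26. The *Ldha*-null mean of 12.3 ± 3.92 FPKM overlapped the wild-type mean of 9.48 ± 2.04 FPKM (SEM, n = 5 each).

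*Top2a*, the topoisomerase that untangles sister chromosomes (mm10 chromosome 11, 98992943 to 99024189), was the most abundant mitotic gene, at 14.3, 115, 143, 39.4 and 109 FPKM in null 1 to 5 and 59.2, 109.5, 67.6, 33.6 and 136 FPKM in WT 1 to 5. *Cdk1*, the kinase that drives entry into mitosis, was at 9.10, 71.7, 91.5, 33.8 and 98.9 FPKM in the null group and 82.7, 71.0, 55.8, 35.3 and 71.2 FPKM in the WT group. In both genes null 2, 3 and 5 were high and 1 and 4 low, whereas among wild-type tumors only number 4 was below 50 FPKM.

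*Cdc20*, an activator of the anaphase-promoting complex, was at 9.49, 42.6, 65.5, 32.1 and 39.0 FPKM in null 1 to 5 and at 34.4, 22, 39.5, 24.2 and 157 FPKM in WT 1 to 5. WT 5 stood far above the other 9, and the wild-type mean was 55.4 ± 25.6 FPKM with it and 30.0 FPKM without it. *Aurkb*, the kinase of the chromosomal passenger complex, was at 3.26, 23.4, 22.8, 11.4 and 24.2 FPKM in the null group and at 20.9, 27.4, 17.2, 9.13 and 31.4 FPKM in the WT group. *Kif11*, the motor that separates spindle poles, was at 1.26, 6.49, 11, 1.91 and 8.59 FPKM in the null group and at 3.78, 6.05, 4.34, 1.52 and 7.21 FPKM in the WT group. *Aurkb* and *Kif11* had the same low tumors, null 1, null 4 and WT 4, and overlapped between labels.

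The cyclins of G2 and mitosis did not keep a fixed proportion. *Ccnb1* over *Ccnb2*, both partners of Cdk1, was 0.724 in WT 2 and 2.54 in WT 5, and *Ccnb2* had its highest level, 47.2 FPKM, in WT 2. A listed *Ccnb2* pseudogene held 6 to 36 counts per tumor, against 76 to 1093 for *Ccnb2*, and reads shared between the copies could have been lost. *Ccnb1* ranged from 5.25 to 55.6 FPKM and *Ccna2*, cyclin A2, from 3.86 to 39.6 FPKM.

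The other mitotic genes were all lowest in null 1 in FPKM (after TMM scaling 13 of the 18 mitotic genes were). The spindle checkpoint genes *Bub1* and *Bub1b* ranged from 2.0 to 16.4 and from 4.43 to 41.0 FPKM. The kinases *Aurka* and *Plk1*, which mature the spindle poles, ranged from 5.05 to 41.2 and from 2.92 to 23.4 FPKM. *Birc5* (survivin) ranged from 3.97 to 26.2 FPKM. For spindle and kinetochore genes, *Tpx2* went from 4.01 to 35.3 FPKM, *Kif20a* from 0.725 to 7.28 FPKM, *Cenpe* from 1.0 to 9.65 FPKM and *Cenpf* from 1.52 to 13.5 FPKM. The highest FPKM was that of WT 5 for 9 of the 18 mitotic genes, null 3 for 4, null 5 for 4 and WT 2 for *Ccnb2*. After TMM scaling null 3 was highest for 9 of them, WT 5 for 7 and null 5 for 1.

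Apart from *Mybl2*, the regulators ranked the tumors differently from the genes above. *Foxm1*, a factor that activates mitotic genes, was at 1.82, 24.5, 14.8, 14.4 and 37.3 FPKM in null 1 to 5 and at 26.5, 24.9, 19.7, 14.6 and 19.4 FPKM in WT 1 to 5. *Mybl2*, which encodes B-Myb, was at 2.54, 12.0, 13.9, 6.19 and 11.8 FPKM in the null group and at 10.6, 9.74, 11.5, 4.30 and 26.8 FPKM in the WT group. *Foxm1* was thus highest in null 5 and *Mybl2* in WT 5, and *Foxm1* in null 3 was close to its level in null 4 and WT 4, where most mitotic genes were low.

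*E2f1*, the E2F factor of the set, was at 1.59, 17.1, 7.82, 13.9 and 17.0 FPKM in null 1 to 5 and at 14.9, 17.9, 10.6, 12.9 and 13 FPKM in WT 1 to 5. *Ccnd1*, cyclin D1, was at 4.45, 177, 73.5, 126 and 82.2 FPKM in the null group and at 133, 53.1, 80.8, 117 and 224 FPKM in the WT group. In null 1 both were far below every other tumor. Their lowest values elsewhere were 7.82 FPKM for *E2f1*, in null 3, and 53.1 FPKM for *Ccnd1*, in WT 2. Without null 1 the SD of log2 CPM was 0.29 for *E2f1* and 0.39 for *Foxm1*, against 0.94 for *Mki67*.

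**Figure D3:**
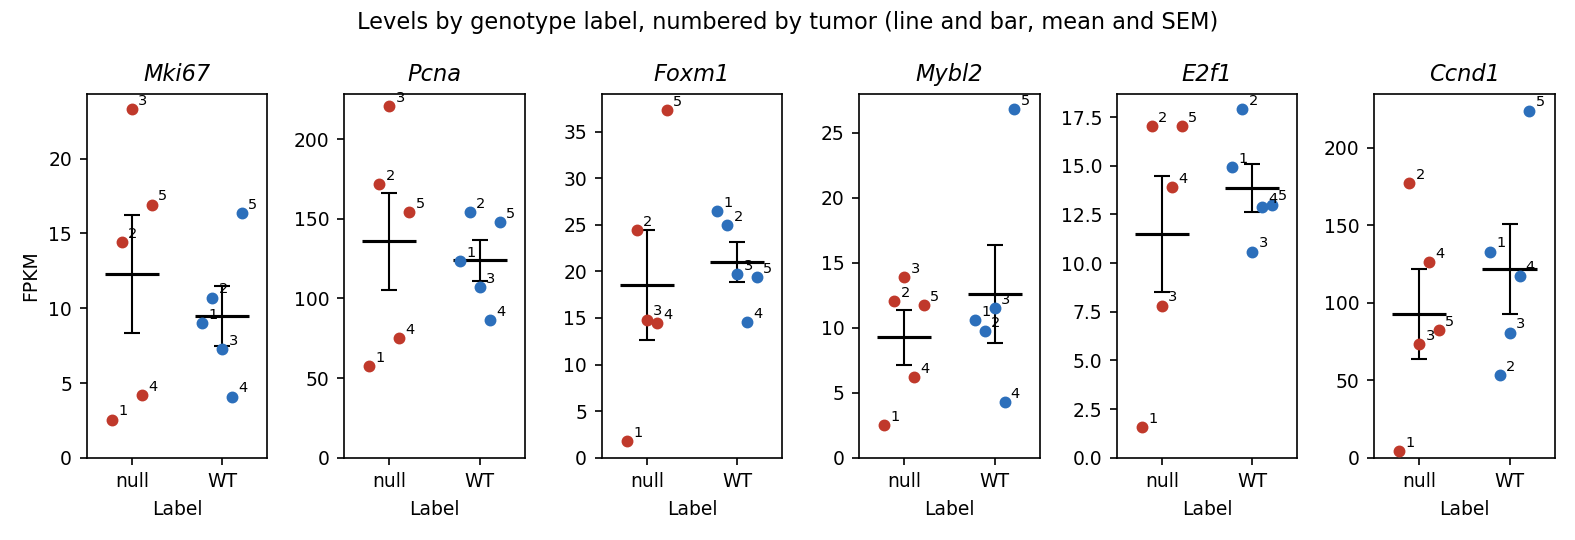
FPKM of *Mki67*, *Pcna* and the 4 regulators in each tumor, numbered as in the labels, with the mean (long line) and SEM (bars) of the 5 *Ldha*-null (null) and 5 wild-type (WT) tumors. The labels overlap in all 6 genes, and in FPKM null 1 is the lowest tumor in each. After TMM scaling this held for *Foxm1*, *E2f1* and *Ccnd1*, while *Mki67* and *Pcna* were lowest in null 4 and *Mybl2* in WT 4.

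To compare S phase with mitosis, the log2 CPM of each gene was centred on its mean over the 10 tumors and averaged over the 14 replication and the 18 mitotic genes. In null 1 to 5 the replication score was -0.79, 0.45, 1.07, -0.73 and -0.08 and the mitotic score -1.31, 0.52, 1.03, -0.86 and 0.44. In WT 1 to 5 the replication score was -0.06, -0.13, -0.01, -0.57 and 0.85 and the mitotic score 0.11, 0.24, -0.22, -0.96 and 1.02. Both scores placed null 1, null 4 and WT 4 lowest and null 3 and WT 5 highest. The mitotic score spanned 2.34 on the log2 scale and the replication score 1.86.

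The replication score minus the mitotic score was 0.53, -0.07, 0.04, 0.13 and -0.51 in null 1 to 5 and -0.17, -0.38, 0.21, 0.39 and -0.16 in WT 1 to 5. Replication genes were thus relatively high in null 1 and WT 4, where both scores were low, and mitotic genes in null 5 and WT 2. In null 4, low in both scores too, the value was 0.13. Whether this pattern goes beyond the wider span of the mitotic score was not tested. The group means of replication minus mitotic score were 0.02 ± 0.37 and -0.02 ± 0.31 (SD, n = 5 each), a difference of 0.05 that is smaller than the spread within either label. For a single pair, *Pcna* over *Mki67* in FPKM, the ratio was 22.5 in null 1, 18 in null 4 and 21.2 in WT 4, and between 9.05 and 14.8 in the other 7.

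**Figure D4:**
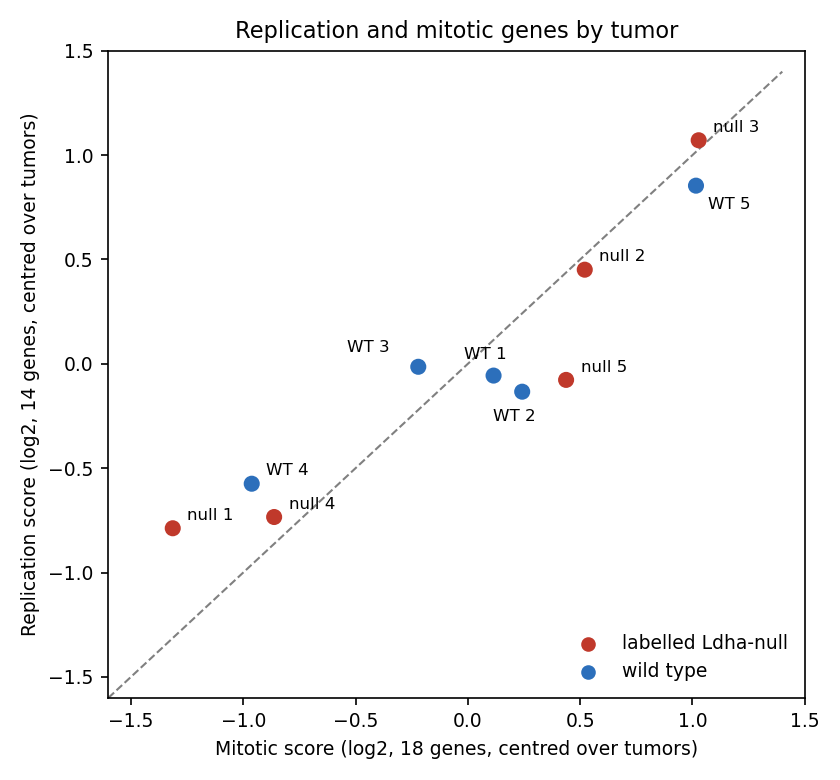
Mean centred log2 CPM of the 18 mitotic genes (x axis) and the 14 replication genes (y axis) in each tumor, with the dashed line where both are equal. The tumors run from null 1 (-1.31, -0.79) to null 3 (1.03, 1.07), with both labels at each end. Farthest from the line are null 1, above it by 0.53, and null 5, below it by 0.51.

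The comparison of genotypes asks whether loss of *Ldha* went with a change in proliferation genes. By edgeR's quasi-likelihood test with Benjamini-Hochberg adjustment over 15176 genes, 0 of the 36 genes differed at an adjusted p under 0.05 (0% of all tested genes did), and every member's adjusted p was 0.999. At an unadjusted p under 0.05 the count was 0 of 36, against 3.96% of all tested genes (3.56% higher and 0.395% lower in *Ldha*-null tumors). The groups overlapped in log2 CPM for all 36 genes, while they did not for 0.185% of all tested genes. DESeq2, limma-voom with sample quality weights and limma on log2(FPKM + 1) also called 0 of 36, both by adjusted and by unadjusted p. Over all genes, DESeq2 called 0.0125% by adjusted p and 2.75% by unadjusted p (of 23969), and voom and limma on FPKM called 0% by adjusted p and 2.12% and 0.843% by unadjusted p.

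The fitted differences were small beside their errors. The median log2 fold change, *Ldha*-null over wild type, was 0.02 for replication genes (7 positive and 7 negative), -0.01 for mitotic genes (7 positive and 11 negative) and -0.34 for the regulators (4 negative), against 0.02 for all tested genes. The sign of these medians depended on single tumors. Without null 1 they were 0.16, 0.23 and -0.09, with 28 of 36 members positive, against -0.02 for all tested genes. Without null 3 they were -0.29, -0.30 and -0.32, with 34 of 36 members negative, and without WT 5 they were 0.28, 0.28 and -0.11, with 30 of 36 positive, against 0.01 and 0.05 for all tested genes. Without null 1, null 3 and WT 5 they were 0.12, 0.24 and 0.14, with all 18 mitotic genes positive and 0 of 36 members at an unadjusted p under 0.05 in edgeR (1.63% of all tested genes). With RLE in place of TMM factors the replication and mitotic medians were 0.03 and -0.01, and with limma on log2(FPKM + 1), which changes the scale and the model together, they were -0.18 and -0.24 against -0.10 for all tested genes.

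*Ccne2* had the largest positive value, 0.59 ± 0.47 (log2 fold change ± SE), with a 95% interval of -0.45 to 1.62, and an exact permutation p of 0.421. It kept its sign in the 17 alternatives but was 0.20 without null 3 and 0.21 with voom. *Mki67* had 0.44 ± 0.56 (interval -0.78 to 1.67, exact permutation p = 0.722) and *Kif11* 0.43 ± 0.57. *Cdc20* had the largest negative value, -0.53 ± 0.63 (interval -1.91 to 0.85), and 0.47 without WT 5. *Pcna* had 0.26 ± 0.34 and *Mcm5* 0.36 ± 0.71. Without null 3 alone the values of *Mki67*, *Kif11*, *Pcna* and *Mcm5* were -0.04, -0.04, -0.05 and -0.29. Without null 1, null 3 and WT 5 together they were 0.54, 0.46, 0.12 and 0.75. Their positive sign thus depended on which tumors were left out. With all tumors, the SE was larger than the difference for each of these genes except *Ccne2*.

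*Tyms* had -0.21 ± 0.32 and *Cdt1* -0.23 ± 0.36, and without null 1 these were -0.02 and -0.01. *Top2a*, *Cdk1*, *Mcm7* and *Aurkb* had 0.10, -0.0011, -0.01 and -0.28. Of the regulators *Ccnd1* had -0.44 ± 0.65, *Mybl2* -0.40 ± 0.52, *E2f1* -0.27 ± 0.39 and *Foxm1* -0.19 ± 0.46, and without null 1 these were -0.14, -0.21, -0.03 and 0.07. Leaving out this tumor thus moved all 4 regulators toward or past 0, and without WT 5 *Mybl2* was at 0.18 and *Ccnd1* at -0.04.

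The intervals state what these 10 tumors can show. The 95% interval lay within 2-fold in either direction for 6 of 36 genes, 5 of them replication genes, and was wider than 4-fold from end to end for 23 of 36. Its median width was 1.84 for replication genes and 2.28 for mitotic genes on the log2 scale.

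**Figure D5:**
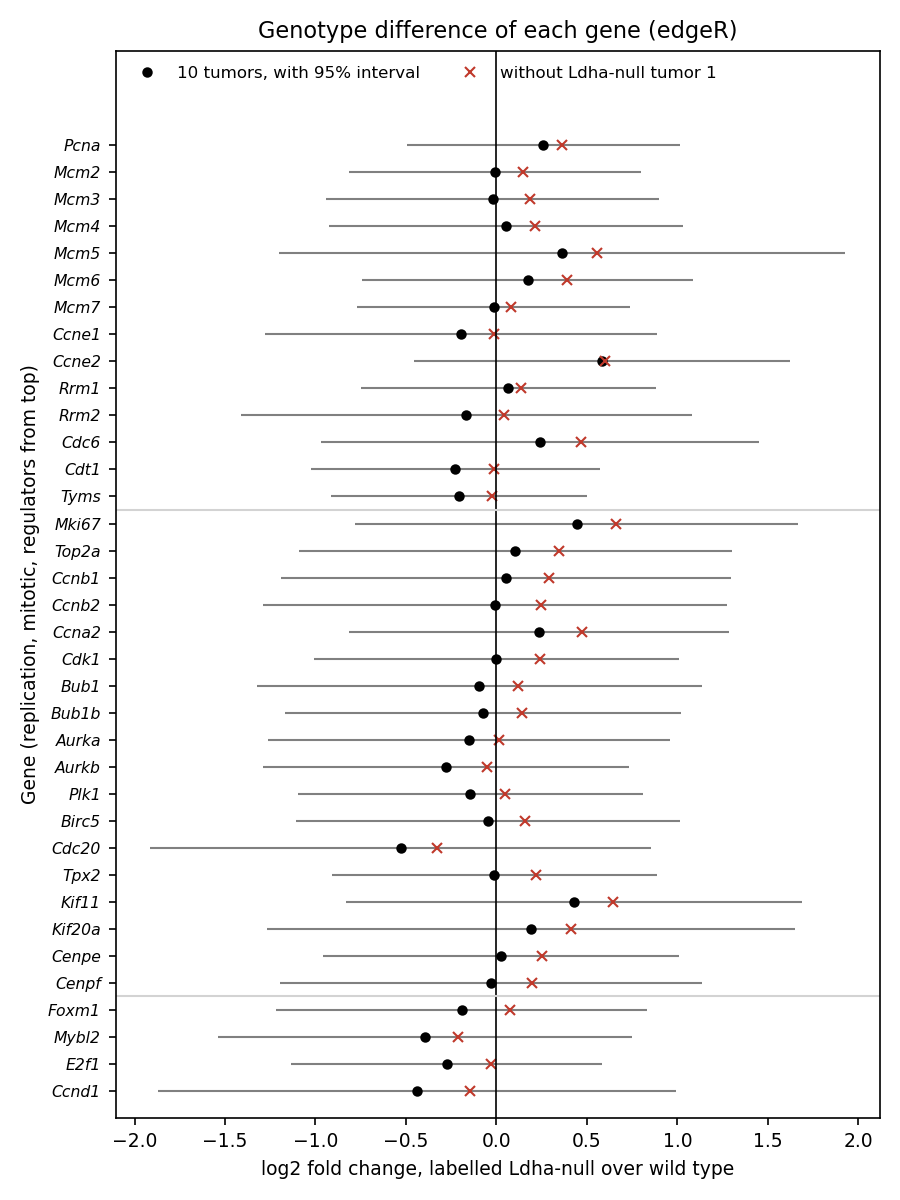
Log2 fold change of each gene, *Ldha*-null over wild type, from edgeR (black points) with its 95% interval (grey lines), and the value without null 1 (red crosses). All 36 intervals include 0, and most crosses lie right of the points, with the median of mitotic genes moving from -0.01 to 0.23.

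Other genes of the same pathways gave a like count. Of 40 further replication genes, 39 were tested and 1 had an unadjusted p under 0.05, *Dut*, the dUTPase that keeps uracil out of DNA, at 48.5 ± 11.2 FPKM in the null group and 89.9 ± 17.9 FPKM in the WT group (SEM, n = 5 each; log2 fold change -0.85, -0.65 without null 1, edgeR adjusted p = 0.999). *Rpa2* and *Rfc3*, of the single-strand binding complex and the clamp loader, followed with 0.69 and -0.42 (0.35 and -0.25 without null 1). The gene not tested was *Fen1*, the flap endonuclease, which held only 2 to 20 counts per tumor. Of 40 further mitotic genes 0 had an unadjusted p under 0.05, and those with the smallest p were *Kif15*, *Ube2c* and *Anln* with 0.54, -0.30 and 0.41 (0.78, -0.10 and 0.67 without null 1).

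Of the 10 inhibitors and pocket proteins, 1 had an unadjusted p under 0.05, the pocket protein gene *Rbl2*, a part of DREAM, at 16.2 ± 1.71 FPKM in the null group and 10.8 ± 1.18 FPKM in the WT group (log2 fold change 0.87, edgeR adjusted p = 0.999). Without null 1 its log2 fold change was 0.45. *Cdkn1c* was at 57.4 FPKM in null 1 and at 2.08 to 13.3 FPKM in the other 9. *Cdkn2a*, which encodes the p16 and Arf inhibitors, was at 8.48, 767, 158, 1254 and 679 FPKM in null 1 to 5 and at 932, 430.3, 1438, 1151 and 457 FPKM in WT 1 to 5. Tumors null 3 and WT 5, the highest in proliferation genes, were thus in the lower part of the *Cdkn2a* range. Tumors null 4 and WT 4, among the lowest in proliferation genes, were high, while null 1 was low in both. The mesenchymal markers summed to 374, 2979 and 4808 FPKM in null 1, null 3 and WT 5 and to 12568 and 13660 FPKM in null 4 and WT 4. In WT 2, with *Cdkn2a* at 430.3 FPKM, they summed to 8437 FPKM. The part of tissue content in the *Cdkn2a* values was not tested.

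Of 6 G1 cyclins and kinases 0 had an unadjusted p under 0.05, and *Cdk4*, *Cdk6* and *Cdc25a* had log2 fold changes of -0.49, -0.39 and 0.31 (-0.31, -0.19 and 0.37 without null 1). Of 7 other E2F factors 1 did, *E2f6*, a repressor, at 30.4 FPKM in null 1 and at 4.71 to 12.3 FPKM in the others (log2 fold change 1.38, and 0.29 without that tumor). *E2f2* and *E2f5* had 0.72 and -0.21 (0.85 and 0.00012 without null 1). All these counts stand beside 3.96% of all tested genes. The median log2 fold change was -0.02 for the further replication genes, -0.03 for the further mitotic genes, 0.18 for the inhibitors and pocket proteins, -0.27 for the G1 cyclins and kinases and 0.12 for the other E2F factors, against 0.02 for all tested genes. Without null 1 these medians were 0.11, 0.21, 0.02, -0.08 and 0.29, against -0.02 for all tested genes. The log2 fold change was above 0 for 18 of the 40 further mitotic genes with all tumors and for 34 of 40 without null 1, where 0 of them had an unadjusted p under 0.05 (1.24% of all tested genes in that fit).

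Across the 10 tumors, 4 pairs of genes were compared by log2 CPM, with permutation p-values adjusted over the 4 pairs by the Benjamini-Hochberg method. *Mki67* and *Top2a* had Pearson r = 0.952 (permutation p = 5e-05, adjusted 0.0001) and Spearman rho = 0.903 (permutation p = 0.00085, adjusted 0.0017). *Mki67* and *Pcna*, a mitotic and a replication gene, had r = 0.946 (permutation p = 4e-05, adjusted 0.0001) and rho = 0.927 (permutation p = 0.00041, adjusted 0.00164). Without the 2 tumors farthest in *Mki67* r was 0.946 and 0.922. Within the 7 tumors that remain without null 1, null 3 and WT 5, r was 0.942 and 0.937 (exact permutation p = 0.00476 and 0.00357, both 0.00952 adjusted). By rank in these 7, rho was 0.821 for *Top2a* (exact permutation p = 0.0341, adjusted 0.0683, above the threshold of 0.05) and 0.893 for *Pcna* (exact permutation p = 0.0123, adjusted 0.0492).

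The other pairs were looser. *Cdk1* and *Mcm5* had r = 0.585 (permutation p = 0.0698, adjusted 0.0930) and rho = 0.721 (permutation p = 0.0238, adjusted 0.0318), with r = 0.647 without the 2 tumors farthest in *Cdk1* and 0.555 within the 7 tumors. *Mki67* and *Ccnd1* had r = 0.351 (permutation p = 0.344, adjusted 0.344) and rho = 0.176 (permutation p = 0.632, adjusted 0.632), with r = 0.555 without the 2 tumors farthest in *Mki67* and -0.21 within the 7 tumors. All points share the tissue differences of the tumors, and the labels give no batch within which to repeat the relations.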

How the data were processed

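RNA was measured in 10 tumors, 5 labelled *Ldha*-null and 5 wild type. The authors enriched messenger RNA on oligo(dT) beads, sequenced it on a HiSeq2500, called bases with CASAVA 1.8 (per the submitters' processing notes), mapped reads to mm10 with TopHat2 and assigned fragments to genes with HTSeq (union mode). The counts are deposited as whole numbers, and the FPKM values were also deposited by the authors, from the same fragments and a gene length. The annotation release and the versions of both tools were not given in the sources used. No strand-keeping step is described, so overlapping antisense genes cannot be separated.

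The test ran in edgeR 4.0.16 under R 4.3.3 (filterByExpr at a minimum count of 10 and total of 15, keeping 15176 genes, then TMM scaling and the quasi-likelihood test with genotype alone), with a threshold of 0.05 on Benjamini-Hochberg adjusted p. Log2 CPM used a prior count of 2. Permutation tests were two-sided, over all 252 assignments for single genes, with 100000 resamples for correlations over 10 tumors and all orders for fewer. The biological coefficient of variation was 63.4%, far above counting error at 12969508 to 17694201 counts per tumor, and counting intervals cover counting error only. No pair of tumors of 1 label came near counting noise (chi-square per gene at least 77.7). The test was tried on simulated data that held no tissue differences between tumors, and no result here rests on that trial. Alternatives used DESeq2 1.42.0, RLE factors, no filter, limma 3.58.1 (voom with quality weights, and log2(FPKM + 1)), the tumor number as a block, and left-out tumors.

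The members, lists and motifs were chosen with earlier results of these data known. All members are reported, and values in every tumor are given for the 4 replication and 4 mitotic genes with the smallest p, the 2 of each with the highest FPKM, the regulators and *Mki67*, *Pcna*, *Top2a*, *Cdk1* and *Mcm5*. From further lists up to 3 genes with the smallest p are named; *Fen1* and *Cdkn1a* were named after their values were seen. Reads and the hair follicle stem cell profiles were not analysed here.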

Additional observations from a re-analysis of the deposited data

Results flagged for a closer look

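In 78 groups of 5 tumors (each of the 36 genes and 3 scores within each label), the gap from an extreme tumor to its nearest neighbour was compared with the range of the group on log2 CPM, with a critical value of 0.71. Of these, 5 groups passed, where about 1 in 20, or 3.9, would do so by chance. WT 5 was far above the other wild-type tumors in *Mcm4* (ratio 0.742, at 20.8 FPKM) and in *Cdc20* (ratio 0.713, at 157 FPKM). Tumor null 1 was far below the other *Ldha*-null tumors in *Cdt1* (ratio 0.736, at 2.05 FPKM) and in *Ccnd1* (ratio 0.716, at 4.45 FPKM). WT 4 was far below the other wild-type tumors in *Cenpe* (ratio 0.718, at 2.76 FPKM). Tumor null 1 is the tumor in which skeletal muscle markers took 13.9% of counts, and WT 5 the one with the highest basal keratinocyte sum, 35530 FPKM; the part of either in these values was not tested.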

How the results depend on the processing

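The count of members past the threshold, adjusted or not, was 0 of 36 in all alternatives run and without each tumor in turn. Leaving out 1 tumor moved the median log2 fold change of replication genes from -0.29 (without null 3) to 0.28 (without WT 5). That of mitotic genes went from -0.30 to 0.28 without the same tumors. The difference of scores between labels went from -0.08 (without null 1) to 0.18 (without null 5). With null 1, null 3 and WT 5 all left out this difference was -0.16, against 0.05 with all tumors. Voom gave medians of 0.11 and 0.25, and moving *E2f1* and *Mybl2* to the replication and *Foxm1* to the mitotic list gave a score difference of 0.03. Of the 16 members with values in every tumor, *Ccne2* and *Tyms* kept their sign in the 17 alternatives, whereas *Cdk1* and *Mcm7* changed it in 9 and 7. Without each tumor in turn, r was 0.942 to 0.964 for *Mki67* and *Top2a*, 0.925 to 0.963 for *Mki67* and *Pcna*, 0.463 to 0.701 for *Cdk1* and *Mcm5*, and 0.07 to 0.47 for *Mki67* and *Ccnd1*. For *Cdk1* and *Mcm5* the adjusted permutation p fell under the threshold, to 0.0488, without null 1; the cause was not tested. With the tumor number as a replicate block the medians were -0.02 and -0.11 and the count stayed at 0. The *Ldha*-null tumor correlated best with the wild-type tumor of its own number in 1 of 5 pairs (correlations within pairs of -0.51 to 0.55). With so few tumors this cannot settle whether the numbers pair them. With 5 tumors a label and a biological coefficient of variation of 63.4%, the 95% interval of the difference lay within 2-fold for 6 of 36 genes.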

Other observations

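Of the inhibitors and pocket proteins counted above, *Cdkn1a*, a target of p53, encodes the inhibitor p21. *Cdkn1a* reached 143 FPKM in null 3 and 168 in WT 5 and lay between 29.1 and 62.6 FPKM in the other 8. These 2 tumors had the highest scores of proliferation genes and also the highest basal keratinocyte sums, 31541 and 35530 FPKM. The part of tissue content in the *Cdkn1a* values was not tested. Its log2 fold change between labels was 0.15 (edgeR adjusted p = 0.999).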
